A study of Mus musculus with 15 samples.

Results

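The 10 genes described here belong to the BCL2 family, whose proteins decide whether a stressed cell opens the outer membrane of its mitochondria and dies. They were taken by symbol, with no threshold on a measured value, and all 10 were found among the 19069 genes of the RNA count files and in both promoter tables. The cells were NIH3T3, an established line of mouse embryonic fibroblasts. Irradiated cells were rinsed, exposed uncovered to 80 J/m2 of UV-C light at 254 nm, given fresh medium with DMSO and collected 6 h later, and the other group was untreated. The labels do not say whether untreated cells were rinsed or given DMSO, so UV and this handling cannot be told apart. RNA-seq was done on 3 untreated and 3 irradiated libraries. FAIRE-seq, which recovers open chromatin as DNA poorly crosslinked to protein, and ChIP-seq for H3K27ac, an acetylation of histone H3 found at active promoters, were done on 2 samples per condition with 1 input DNA sample.

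In this family, BH3-only proteins act as sensors: NOXA (Pmaip1), PUMA (Bbc3), BID (Bid), BAD (Bad) and BIM (Bcl2l11) carry a single BH3 helix that docks into other family members. The effectors BAX and BAK (Bax, Bak1) form pores in the outer mitochondrial membrane and let cytochrome c out. The survival proteins BCL2, BCL-XL (Bcl2l1) and MCL1 hold effectors and BH3-only proteins in a bound, inactive state. Noxa, Puma and Bax are textbook targets of p53, the transcription factor activated by DNA damage. The balance between the groups, rather than any single member, is what is known to set the death threshold.

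The RNA libraries held 14211528 to 22032701 counts, and levels are given as CPM, the counts scaled to library size with TMM factors. All 10 fibroblast markers checked were at 5 CPM or more on average, at a summed 17259 CPM or more in every library, whereas the summed markers of epithelial, endothelial, muscle and neural cells reached at most 9.88 CPM. The 5 blood cell markers summed to 7.46 to 9.80 CPM in untreated and 12.8 to 17.4 CPM in irradiated libraries, without overlap, and Cd68 was the only one of them at 5 CPM or more on average. The part of these markers in the results below was not tested. Replicate 1 lay farthest from the other libraries in both groups. Among the irradiated libraries, replicate 1 gave the highest CPM for 9 of the 10 BCL2 family genes, and for 53% of all tested genes. Without it the members' calls were the same, except that Bak1 also passed as lower. The labels do not say whether libraries came from separate cultures, so each p-value speaks only of library-to-library spread, which may be technical. In bulk RNA, fewer cells of a kind and less RNA per cell cannot be told apart.

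Pro-apoptotic genes moved in both directions after irradiation, and most survival genes did not pass the test. In edgeR's quasi-likelihood test with Benjamini-Hochberg adjustment over 14925 genes, 2 of the 10 rose (Pmaip1 and Bax), 3 fell (Bid, Bcl2l11 and Bcl2l1) and 5 did not pass. Of all tested genes 7.70% rose and 12.4% fell. Of the 7 pro-apoptotic genes 2 rose and 2 fell, with a median log2 fold change of 0.27, and of the 3 anti-apoptotic genes none rose and 1 fell, with a median of 0.00. The median over all tested genes was −0.01. The CPM of the irradiated libraries lay wholly above the untreated ones for 3 members and wholly below for 3, where 16.6% and 17.3% of all tested genes did so. All 5 calls held in each of the 13 other fits tried for single genes. The authors' deposited table, which lists 2068 genes with adjusted p up to 0.0999, holds the same 5 members, at log2 fold changes of 4.18 (Pmaip1), 0.86 (Bax), −2.40 (Bid), −1.14 (Bcl2l11) and −1.38 (Bcl2l1).

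**Figure D1:**
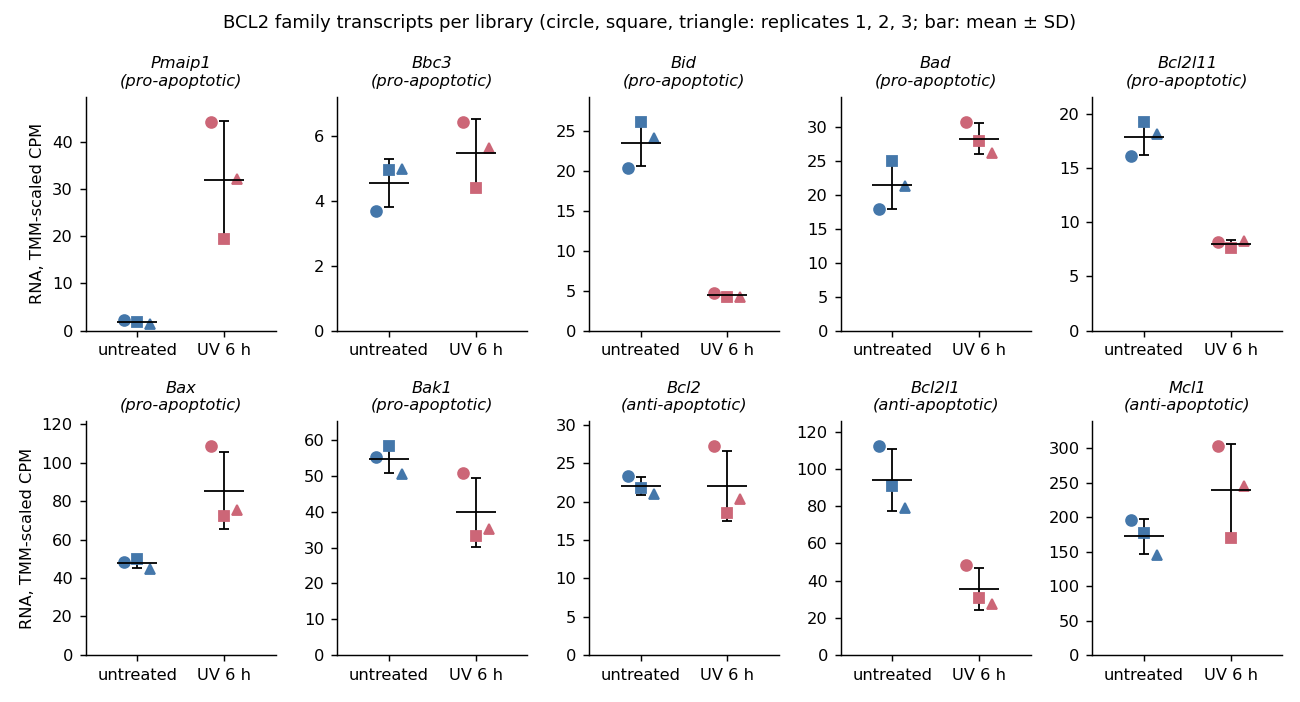
RNA level of each of the 10 genes in every library, in TMM-scaled CPM on axes that start at 0, with untreated libraries in blue and irradiated ones in red. Short horizontal bars are means and whiskers are SDs (n = 3); Bid falls to between 4.23 and 4.70 CPM in all irradiated libraries, while Bcl2 and Bbc3 overlap between the groups.

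**Figure D2:**
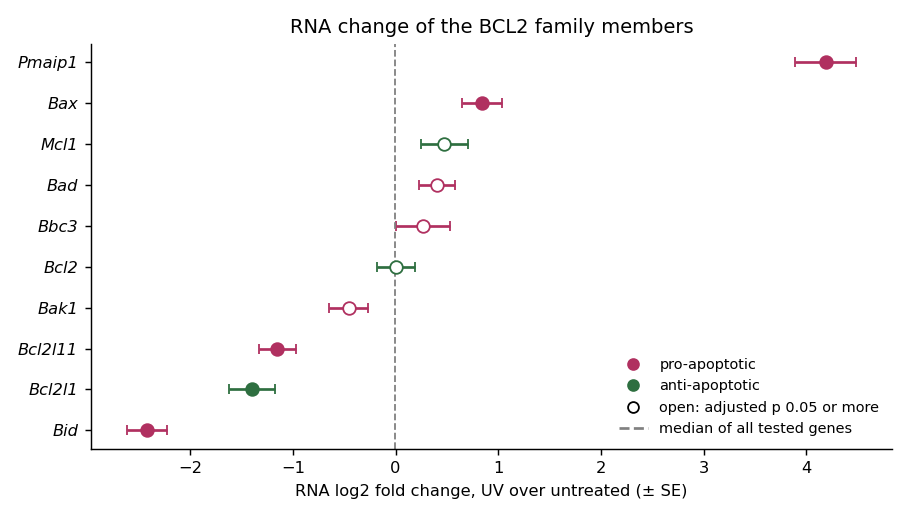
Log2 fold change of RNA (irradiated over untreated) with its standard error for each gene, ordered by size, from −2.42 for Bid to 4.19 for Pmaip1. Filled points passed the test at an adjusted p below 0.05, colours separate pro-apoptotic from anti-apoptotic genes, and the dashed line is the median of all tested genes.

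The promoter measurements come from windows of 1000 bp. Each condition's samples had been merged before deposit, so replicate error is unknown and nothing was tested. Values are given on a pair of scales. The difference of log2 enrichment over input (irradiated minus untreated) decides a gain or loss, at a size of 1 or more. The read ratio is the irradiated over the untreated read number after scaling for pool depth, with an exact 95% binomial interval that covers counting error only. By the first scale 2 of the 10 promoters gained H3K27ac (Pmaip1 and Bbc3) and none lost it. Of the promoters of all tested genes 2.93% gained and 4.26% lost H3K27ac. No member gained or lost FAIRE signal by that rule, where 0.0067% of promoters gained and 1.39% lost it. The FAIRE differences as a whole lay below 0, with a median of −0.27 over the promoters of tested genes, against −0.06 for H3K27ac.

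Among the BH3-only genes, Pmaip1 and Bid moved farthest and in opposite directions. Pmaip1, whose product NOXA binds MCL1 in particular, was at 2.28, 1.73 and 1.30 CPM in untreated replicates 1 to 3 and at 44.3, 19.3 and 32.2 CPM in the irradiated ones. Every irradiated library exceeded every untreated one, and the irradiated libraries differed among themselves by more than the whole untreated level. The log2 fold change was 4.19 ± 0.30 (SE, adjusted p = 6.55e-08 in edgeR), an 18.2-fold rise and the 5th highest of all tested genes. Bid, whose product is cut by caspases into an activator of BAX and BAK, was at 20.4, 26.1 and 24.0 CPM without and 4.70, 4.24 and 4.23 CPM with irradiation. The 3 irradiated values nearly coincide and lie far under the lowest untreated one. The fall came to −2.42 ± 0.19 on the log2 scale (adjusted p = 2.13e-07 in edgeR), 5.35-fold, and the 20th lowest of all tested genes.

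The other BH3-only genes changed less. Bcl2l11, which encodes BIM, a sensor that can bind all survival proteins, fell from 16.1, 19.3 and 18.1 CPM to 8.17, 7.61 and 8.28 CPM. The groups did not overlap, and the log2 fold change was −1.15 ± 0.18 (adjusted p = 0.00018 in edgeR). Bad, whose product binds BCL2 and BCL-XL when it is not phosphorylated, was at 17.9, 25.1 and 21.3 CPM in untreated and 30.8, 28.0 and 26.2 CPM in irradiated cells. Its groups were separated by a narrow margin and it did not pass the test (log2 fold change 0.40 ± 0.18, adjusted p = 0.131 in edgeR, 95% interval 0.03 to 0.77 before adjustment). Without untreated replicate 2 it did (0.65, adjusted p = 0.0198 in edgeR), and with library totals in place of TMM the value was 0.17. Bbc3, which encodes PUMA, was at 3.68, 4.96 and 4.98 CPM and at 6.44, 4.38 and 5.62 CPM, so the groups overlapped. Its log2 fold change was 0.27 ± 0.26 (adjusted p = 0.619 in edgeR), with a 95% interval of −0.28 to 0.82. It rests on only 65 to 130 counts per library, and its sign turned without replicate 1 of both groups (−0.03), while with library totals it was 0.01.

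At their promoters, the BH3-only genes separated into a pair with far more acetylation and a set of 3 with less or about the same. The Pmaip1 promoter went from 32 to 252 H3K27ac reads, a ratio of 7.81 (5.39 to 11.7), and its enrichment difference of 2.48 was the 3rd highest of 14925. In untreated cells 66.2% of these promoters were more enriched than that of Pmaip1. Its FAIRE reads were too few to show a difference (18 and 24, against 18 in the input; ratio 1.66, 0.864 to 3.25). The Bbc3 promoter went from 356 to 1680 H3K27ac reads, a ratio of 4.68 (4.17 to 5.26), and its difference of 2.18 ranked 9th. Bbc3 also stood out in FAIRE, from 41 to 76 reads, a ratio of 2.31 (1.56 to 3.46), where its difference of 0.85 was the 6th highest. PUMA's gene therefore combined one of the highest acetylation and FAIRE differences with an RNA difference inside the spread of the libraries. Among the 437 promoters of tested genes that gained H3K27ac, RNA rose for 16.2%, fell for 13.5% and did not pass for 70.3%.

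The remaining BH3-only promoters did not follow that pattern. The Bid promoter had 129 and 124 H3K27ac reads (ratio 0.953, 0.739 to 1.23) beside its 5.35-fold lower RNA, and 32 and 19 FAIRE reads (0.740, 0.396 to 1.35). Bad lost reads from one of the most acetylated promoters measured, with 1054 and 596 reads (0.561, 0.506 to 0.621), and only 0.489% of promoters were more enriched in untreated cells. Its RNA difference pointed the other way. With quantile normalization the Bad difference passed −1, at −1.16, instead of −0.81. Its FAIRE reads were 92 and 53 (0.718, 0.502 to 1.02). Bcl2l11 had 170 and 122 H3K27ac reads (0.712, 0.559 to 0.903), with lower RNA as well, and 46 and 41 FAIRE reads (1.11, 0.711 to 1.73). Its H3K27ac difference was −0.44, and −0.21 under quantile normalization.

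For Bbc3, a gene with a strong acetylation gain, and Bid, the member whose RNA fell most, the 250 bases before an annotated start are given. They run 5′ to 3′ on the gene's strand, from RefSeq on GRCm38.p6. The deposited tables use mm9 and give no window positions, so these stretches are not placed against the windows. Of the 3 annotated Bbc3 starts the farthest upstream is shown. RefSeq promoters of 9 of the 10 genes were searched, with 15 starts. The search left out member entries on 1 chromosome, a limit not set for the share over all promoters. No Pmaip1 promoter was searched, so nothing is said of its motifs. Capitals mark GC boxes (GGGCGG on either strand), the motif bound by SP1-type factors.
Bbc3 (chr7:16309333-16309582, plus strand): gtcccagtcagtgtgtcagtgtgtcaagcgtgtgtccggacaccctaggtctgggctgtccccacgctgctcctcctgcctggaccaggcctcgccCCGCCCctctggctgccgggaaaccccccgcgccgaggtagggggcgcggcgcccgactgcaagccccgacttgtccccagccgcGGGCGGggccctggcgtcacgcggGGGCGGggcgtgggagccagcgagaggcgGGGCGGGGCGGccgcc
Bid (chr6:120916825-120917074, minus strand): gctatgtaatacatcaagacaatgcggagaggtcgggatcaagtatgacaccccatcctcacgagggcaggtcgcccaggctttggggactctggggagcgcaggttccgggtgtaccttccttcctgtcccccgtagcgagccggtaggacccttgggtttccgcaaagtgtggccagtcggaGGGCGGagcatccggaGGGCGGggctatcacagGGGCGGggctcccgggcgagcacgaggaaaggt
Over 300 bases (250 before to 50 after the start) this Bbc3 start has 5 GC boxes and Bid has 3, and 35.7% of 32851 RefSeq promoters of that length hold at least 1. No p53 half-site was found by letters at any of the 3 Bbc3 starts or at Bid, which says only that those letters are not in these windows.

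The 2 pore-forming effectors went different ways in RNA and in acetylation. Bax was at 48.2, 49.8 and 44.8 CPM in untreated and at 109, 72.5 and 75.3 CPM in irradiated cells. All irradiated libraries lay above the untreated ones, with replicate 1 the highest. The log2 fold change was 0.84 ± 0.19 (adjusted p = 0.00429 in edgeR), a 1.80-fold rise, and 0.62 (adjusted p = 0.00283) without irradiated replicate 1. Bak1 was at 55.2, 58.4 and 50.6 CPM against 51.0, 33.3 and 35.2 CPM. Irradiated replicate 1 reached the untreated range and the remaining irradiated libraries lay well under it. The log2 fold change was −0.46 ± 0.19 and did not pass (adjusted p = 0.110 in edgeR). It did pass without irradiated replicate 1 (−0.69, adjusted p = 0.000996 in edgeR), without replicate 1 of both groups (−0.71) and with library totals (−0.71).

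A ratio of the counts of 2 genes within one library needs no scaling between libraries, although its absolute size depends on transcript length. The Bax to Bak1 ratio was 0.872, 0.853 and 0.886 in untreated libraries and 2.13, 2.17 and 2.14 in irradiated ones. The spread within each group was under 0.05 while the groups differed by 1.28, so irradiated replicate 1, which stood apart in CPM, did not stand apart in this ratio. This and the other gene pairs below were picked after their values were seen and have no test.

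The effector promoters also differed. H3K27ac reads at Bax went from 259 to 471, a ratio of 1.80 (1.55 to 2.11), the same size as its RNA fold. Those at Bak1 went from 549 to 271, a ratio of 0.489 (0.422 to 0.567), with an enrichment difference of −0.98, just short of a loss. FAIRE reads were fewer at both, from 105 to 38 at Bax (0.451, 0.303 to 0.659) and from 76 to 46 at Bak1 (0.754, 0.511 to 1.10). Bax thus had more acetylation and RNA but fewer FAIRE reads, and its FAIRE difference of −0.97 was the 253rd lowest of 14925. Under quantile normalization, which removes the general FAIRE shift, the Bak1 FAIRE difference was 0.01 in place of −0.40, and the Bak1 H3K27ac difference passed −1 (−1.06).

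The upstream 250 bases of the 2 effectors are shown because their acetylation moved in opposite directions. Capitals mark GC boxes and, in Bax, a p53 half-site (10 bases, starting at −201 from the transcription start).
Bax (chr7:45466899-45467148, minus strand): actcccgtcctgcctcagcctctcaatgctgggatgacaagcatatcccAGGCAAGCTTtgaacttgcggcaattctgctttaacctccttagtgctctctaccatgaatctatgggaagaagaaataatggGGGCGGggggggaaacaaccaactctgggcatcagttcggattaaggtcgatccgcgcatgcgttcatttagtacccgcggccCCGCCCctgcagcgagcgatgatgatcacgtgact
Bak1 (chr17:27028628-27028877, minus strand): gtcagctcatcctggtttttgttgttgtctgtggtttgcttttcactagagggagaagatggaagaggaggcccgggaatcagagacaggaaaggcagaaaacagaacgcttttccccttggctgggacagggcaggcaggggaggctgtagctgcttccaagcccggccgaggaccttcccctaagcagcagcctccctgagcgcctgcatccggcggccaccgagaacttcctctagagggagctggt
The Bax window was the only one of the 15 RefSeq windows searched with a p53 half-site, and no Pmaip1 window was among them. By letters on either strand this motif was found in 8.36% of all RefSeq promoters of 300 bases. The Bak1 window held no GC box, no CCAAT box (CCAAT), no AP-1 site (TGANTCA) and no cAMP response element (TGACGTCA). The last 2 motifs were in none of the 15 windows and in 7.81% and 1.79% of all promoters. A match is a description of letters and not a binding site.

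Among the survival genes, only the BCL-XL gene passed the test. Bcl2l1 was at 112, 90.9 and 79.0 CPM in untreated and 48.4, 30.8 and 27.6 CPM in irradiated cells. The highest irradiated library stayed under the lowest untreated one. The log2 fold change was −1.40 ± 0.22 (adjusted p = 0.000207 in edgeR), 2.64-fold lower. Bcl2 was at 23.3, 21.7 and 21.0 CPM against 27.2, 18.5 and 20.4 CPM, with irradiated libraries on both sides of the untreated ones. Its log2 fold change was 0.00 ± 0.18 (adjusted p = 0.998 in edgeR) with a 95% interval of −0.38 to 0.38, and the sign turned with library totals (−0.25) and without irradiated replicate 1 (−0.19). Mcl1, which encodes a short-lived protein that must be made continuously, was at 195, 177 and 145 CPM against 304, 169.7 and 245 CPM. The groups overlapped through irradiated replicate 2, and the gene did not pass (0.47 ± 0.23, adjusted p = 0.175 in edgeR, 95% interval −0.01 to 0.96). It passed without untreated replicate 1 (0.68, adjusted p = 0.0391 in edgeR) or without irradiated replicate 2 (0.67, adjusted p = 0.0349). Leaving out irradiated replicate 1 gave a smaller value (0.25, adjusted p = 0.458), as did scaling by library totals (0.22, adjusted p = 0.33).

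The 3 survival promoters showed modest acetylation differences. Mcl1 went from 549 to 955 reads, a ratio of 1.72 (1.55 to 1.92), with an enrichment difference of 0.78 that came to 0.40 under quantile normalization. Bcl2 went from 448 to 321 reads (0.710, 0.614 to 0.822) and Bcl2l1 from 370 to 293 (0.785, 0.671 to 0.918). For Bcl2l1 the promoter ratio was thus much nearer to 1 than the 2.64-fold lower RNA. RefSeq lists 3 starts for Bcl2l1, and which of them the measured window covers is not known. The same limit holds for Bbc3, Bad and Bcl2l11, which also have several listed starts. FAIRE reads at Bcl2 went from 38 to 12 (0.393, 0.187 to 0.769), while Bcl2l1 (73 and 56 reads, 0.955, 0.662 to 1.37) and Mcl1 (93 and 71, 0.951, 0.688 to 1.31) had intervals that include 1. The FAIRE differences of Bcl2l1 and Mcl1 turned positive with quantile normalization, at 0.29 and 0.34.

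**Figure D3:**
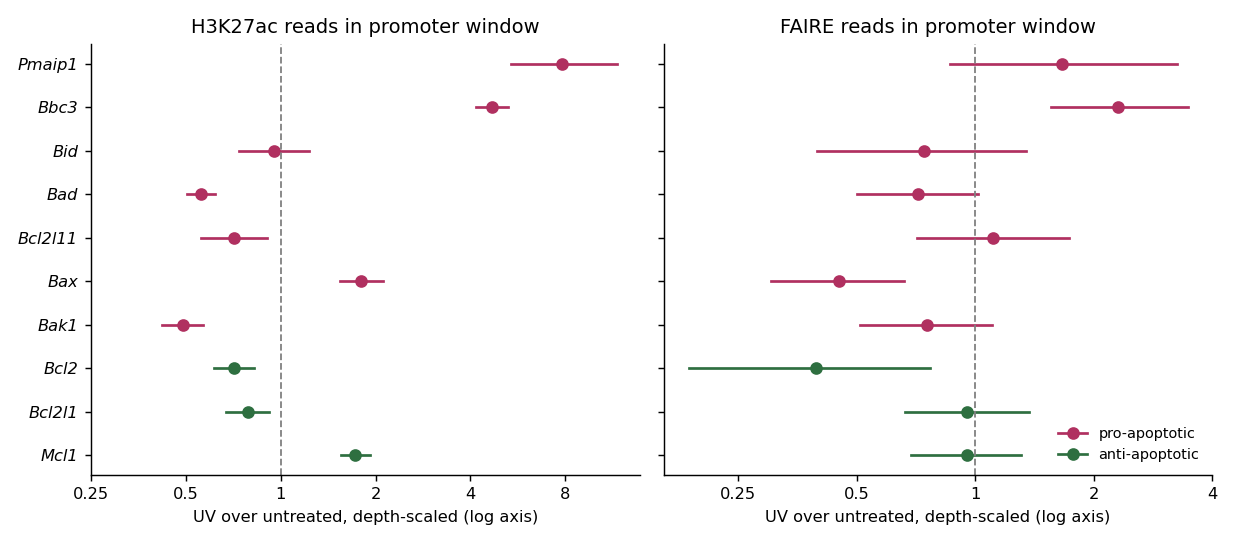
Read ratio at each promoter, irradiated over untreated and scaled for pool depth, for H3K27ac and FAIRE on logarithmic axes. Lines are exact 95% binomial intervals (counting error only), and the dashed line marks no difference. In H3K27ac 9 of the 10 intervals exclude 1, and in FAIRE only those of Bbc3, Bax and Bcl2 do. Intervals were computed for these genes alone, so the share of all promoters whose interval excludes 1 is not known.

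Across the 10 genes, the RNA difference and the H3K27ac difference had one sign in 8, the exceptions being Bad and Bcl2, against 51.8% of all 14925 promoters of tested genes. The RNA difference of Bcl2 was 0.00 and its sign is not defined by these data. All 5 genes called in RNA were among the 8, although the acetylation interval of Bid includes 1. The share with one sign among all called genes was not computed, so these 5 have no background to be read against. With quantile normalization the H3K27ac difference of Bid was 0.13, opposite in sign to its RNA difference. RNA and FAIRE had one sign in 5 of the 10, against 50.01% of all promoters.

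**Figure D4:**
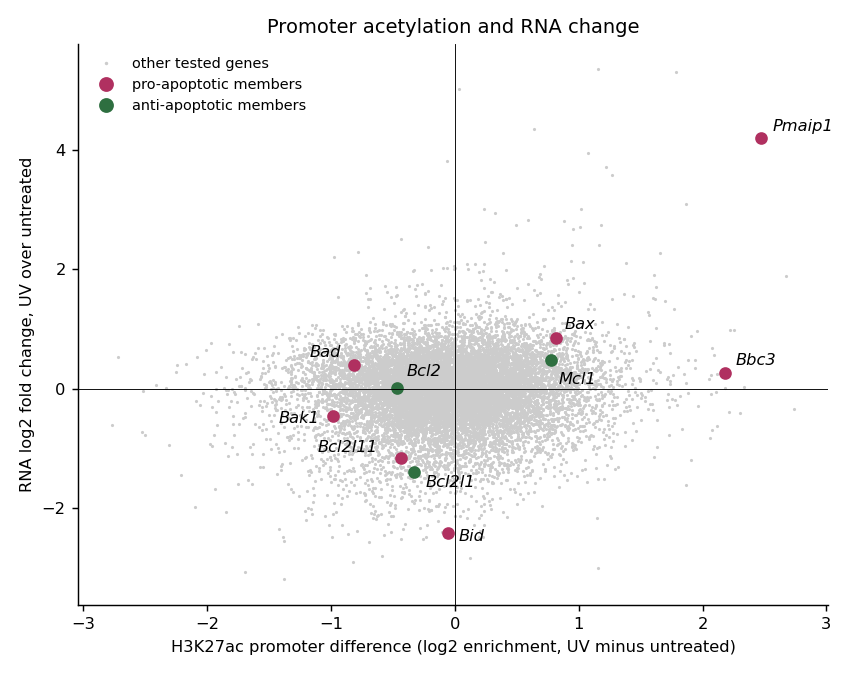
RNA log2 fold change (vertical) against the H3K27ac promoter difference in log2 enrichment (horizontal), with the 10 genes coloured by class over all other tested genes in grey. Pmaip1 is high on both axes (2.48 and 4.19), Bbc3 is high on acetylation alone (2.18 and 0.27), and Bid is low on RNA alone (−0.06 and −2.42).

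Setting the 2 classes against each other, the mean log2 CPM of the 7 pro-apoptotic genes minus that of the 3 anti-apoptotic genes was −2.45, −2.09 and −2.08 in untreated and −1.79, −1.59 and −1.58 in irradiated libraries. The groups did not overlap and their means differed by 0.55. Without Pmaip1 the same value was −2.01, −1.56 and −1.51 against −1.97, −1.65 and −1.73, the groups overlapped and the means differed by −0.09. The separation of the groups was thus present with Pmaip1 and not without it. It is not credited to Pmaip1 alone, since the pro-apoptotic mean differed by 0.22 and the anti-apoptotic mean by −0.33. The same value without Bcl2l1, the survival gene called lower, was not computed. No test was made, since the genes were chosen with results known.

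Some ratios between partners, picked after their values were seen, also differed between the groups. Pmaip1 counts were 1.17%, 0.977% and 0.899% of the Mcl1 counts in untreated and 14.6%, 11.4% and 13.1% in irradiated libraries. Bax counts were 0.429, 0.548 and 0.567 times those of Bcl2l1 without and 2.24, 2.35 and 2.73 times with irradiation. The Bax to Bcl2 ratio went from 2.07, 2.29 and 2.13 to 3.99, 3.91 and 3.69. Within the survival group, Bcl2l1 counts were 0.574, 0.513 and 0.545 times those of Mcl1 in untreated and 0.159, 0.182 and 0.112 times in irradiated cells. In none of these 4 ratios did the groups overlap. The Bid to Bax ratio, within the pro-apoptotic class, fell from a mean of 0.494 to 0.0527, also without overlap. No ratio of Bid or Bcl2l11, both lower in RNA, to a survival gene was computed, so these pairs do not stand for the class.

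Of 16 other BCL2 family genes, 10 had enough counts to test, and 2 rose, 1 fell and 7 did not pass, with a median log2 fold change of −0.11. Over all tested genes 7.7% rose and 12.4% fell. Bmf, which encodes a BH3-only protein tied to the cytoskeleton, fell from 6.77 ± 2.82 to 1.64 ± 1.00 CPM (SD, n = 3 per group; −2.05 ± 0.43, adjusted p = 0.0021 in edgeR). Bok, a relative of BAX and BAK, was at 0.77 ± 0.23 (adjusted p = 0.0255) and Bcl2l2, which encodes the survival protein BCL-W, at 0.60 ± 0.19 (adjusted p = 0.0299). Each of the 3 calls was lost in some fits. Bmf no longer passed when untreated replicate 2 or 3 was left out, at −1.69 and −1.74 (adjusted p = 0.0948 and 0.0715). Bok kept its size but no longer passed when untreated replicate 2 or 3 was left out, at 0.78 and 0.75 (adjusted p = 0.0806 and 0.0632). Its fold was smaller when irradiated replicate 1 was left out (0.44, adjusted p = 0.0524) or when scaled by library totals (0.50, adjusted p = 0.0879). Bcl2l2 missed the threshold at about the same size without irradiated replicate 3 (0.60, adjusted p = 0.145), without a low-count filter (0.61, adjusted p = 0.0693) and in DESeq2 (0.63, adjusted p = 0.0603). It was smaller without irradiated replicate 1 (0.43, adjusted p = 0.0516) and without replicate 1 of both groups (0.41, adjusted p = 0.16), and passed with library totals at 0.35 (adjusted p = 0.0212). The 4 copies of Bcl2a1, Bcl2l10 and Bik had at most 12 counts in any library.

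In a list of the mitochondrial death pathway (caspases and their inhibitors, the apoptosome, released factors, and channel and fission or fusion genes of the mitochondrion), 25 of 26 genes were tested. Of these 2 rose, 6 fell and 17 did not pass (median −0.09), where 7.7% of all tested genes rose and 12.4% fell. Cycs, which encodes cytochrome c, the protein that leaves the mitochondrion to build the apoptosome, rose 2.30-fold (1.2 ± 0.21 on the log2 scale, adjusted p = 0.000582 in edgeR). The caspase genes Casp6 and Casp2 were lower, at −1.79 ± 0.26 and −1.22 ± 0.19 (adjusted p = 8.8e-05 and 0.000155), as was Dffa, which encodes the inhibitor of the caspase-activated DNase (−1.02 ± 0.23, adjusted p = 0.00337). Apaf1, which encodes the scaffold of the apoptosome, was at −0.54 and did not pass (adjusted p = 0.067). With library totals 1 of these genes rose and 11 fell, where 6.06% and 25.1% of all tested genes did. Without irradiated replicate 1 the counts were 1 and 10 (7.62% and 18.3% of all genes). Without untreated replicate 2, 4 rose and 4 fell (12.5% and 7.49%), and without irradiated replicate 3, 1 rose and 5 fell (3.75% and 7.31%).

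Of 30 genes that regulate the family or bind its members, 6 rose, 5 fell and 19 did not pass (median 0.17). Of all tested genes 7.7% rose and 12.4% fell. Atf3, a stress-induced transcription factor, rose by 3.58 ± 0.25 (adjusted p = 4.72e-08 in edgeR), Jun by 1.06 ± 0.20 (adjusted p = 0.000904) and Dynll1, whose product is the dynein light chain that anchors BIM, by 0.87 ± 0.19 (adjusted p = 0.00333). Btrc, which encodes a ubiquitin ligase subunit, fell by 0.95 ± 0.18 (adjusted p = 0.000903). Trp53 itself was at 0.17 ± 0.19 and did not pass (adjusted p = 0.692). Falls numbered 9 with library totals (where 25.1% of all tested genes fell) and 3 in DESeq2 (where 7.64% of genes rose and 11.7% fell). Without untreated replicate 2, 10 rose and 3 fell (12.5% and 7.49% of all genes). Without irradiated replicate 3 falls numbered 1 (7.31% of all genes).

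**Figure D5:**
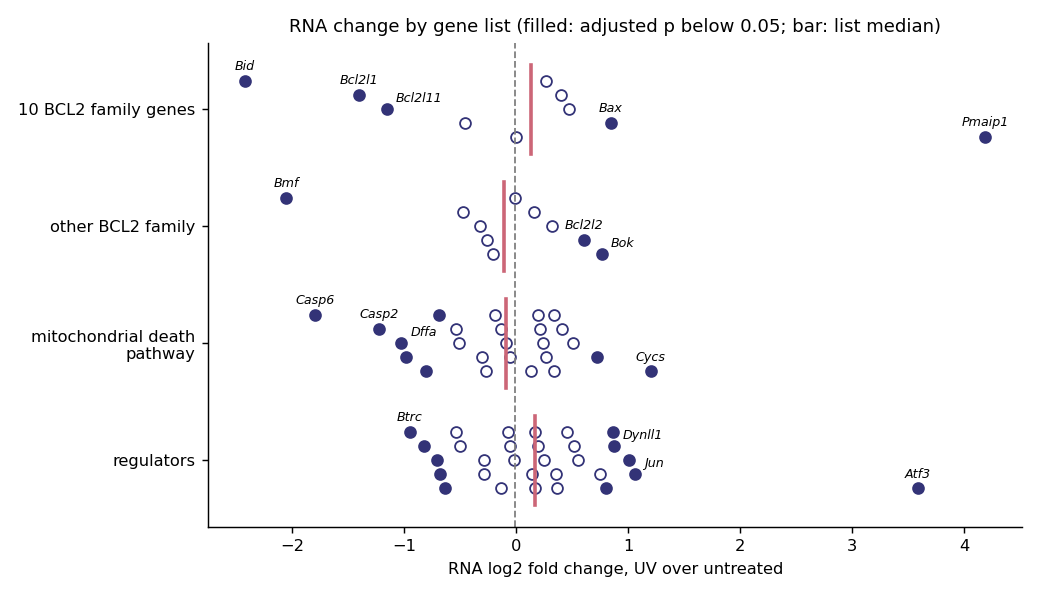
RNA log2 fold change of the 10 genes and of 3 related gene lists, with 1 point per tested gene. Filled points passed the test, red bars are list medians (0.14, −0.11, −0.09 and 0.17 from top to bottom) and the dashed line is the median of all tested genes, which lies among them.

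By Pearson correlation of log2 CPM over the 6 libraries, among 9624 other genes with at least 5 CPM on average, the genes most like Pmaip1 were Purb, Aqp1 and Stambp (r = 0.9987, 0.9985 and 0.9983). Those most like Bid were S1pr2, Sema4c and Stk38l (r = 0.9994, 0.9993 and 0.9993). The libraries fall in 2 groups of 3, so the points are not spread evenly, and the sizes of the differences were unlike: Purb was at a log2 fold change of 0.80 beside 4.19 for Pmaip1, and S1pr2 at −1.79 beside −2.42 for Bid.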

How the data were processed

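The members and gene lists were chosen with earlier results of these data known. The submitters' processing notes name mm9, TopHat, Bowtie 0.12.9, MACS2 and DESeq2, without roles. The RNA files hold read counts per gene, deposited unscaled. The promoter tables hold, per the file headers, counts per window merged by condition and log2 enrichment values that the authors deposited. These equal log2 of (reads + 16) over (scale × input + 16), with scales of 0.706 and 0.712 for untreated and irradiated H3K27ac and 0.657 and 0.528 for FAIRE. The ratio of the scales gave the relative pool depth. Columns headed DMSO were taken as irradiated, because the labels' protocol gives DMSO medium to irradiated cells. Another 4 columns of values there were not used. The authors' deposited table of log2 fold changes and p-values was only quoted.

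Differences in RNA were tested with edgeR 4.0.16 under R 4.3.3 (filterByExpr, TMM, glmQLFit, quasi-likelihood F test, Benjamini-Hochberg adjustment over 14925 genes, threshold 0.05). The steps were tested on simulated data. A standard error is the log2 fold change over the square root of F. Log2 CPM used a prior count of 2. DESeq2 1.42.0 was an alternative, with its size factors, library totals, 2 other filters, a replicate block, a fold threshold and the fit without each library. The 13 other fits of single genes leave out the fold threshold. The fit without replicate 1 of both groups and the prior count of 0.5 were added after seeing the data. Promoters were analysed in Python 3.11.15 with scipy 1.17.1. Named were all members, up to 4 called genes per list by smallest p (2 where none was called), and for the called members with the highest and lowest fold change the 3 genes of highest correlation. Apaf1, Trp53 and the untested genes were named after their values were seen. In the RefSeq name table the spans of Bid, Bad, Bcl2l11, Bak1, Bcl2 and Bcl2l1 overlap other genes, and the labels do not state whether counting used strand. Peak files were not used here, because no gene positions on mm9 were at hand.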

Additional observations from a re-analysis of the deposited data

How the results depend on the processing

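The members called numbered 2 higher and 3 lower. A required log2 fold change of at least 1 left 1 higher, and leaving out a library gave 2 to 3 higher and 3 to 4 lower. The replicate block gave 2 higher and 3 lower, and moved no count by over 1.5 times. Same-numbered libraries correlated in their deviations from the group means at 0.155, −0.58 and 0.504, and not every library correlated best with its own number, so the numbers were not taken as pairs. With library totals alone, which moved the median of all tested genes from −0.01 to −0.24, 2 members were higher and 4 lower. The cause of the changes below was not tested. The share of all tested genes called moved between the same fits. Leaving out a library gave 3.75% to 12.5% higher and 7.31% to 18.3% lower. Library totals gave 6.06% and 25.1%, DESeq2 7.64% and 11.7%, and no filter 4.19% and 7.99%. The filter of 1 CPM gave 12.2% and 16.4%, and the fold threshold 1.81% and 5.37%. For the other BCL2 family (2 higher, 1 lower) DESeq2, library totals and no filter each gave 1 higher, the fold threshold 0 higher, library totals 4 lower and a filter of 1 CPM in 3 libraries 2 lower; leaving out libraries gave 0 to 2 higher and 0 to 2 lower. For the mitochondrial death pathway (2 higher, 6 lower) library totals, no filter and the fold threshold each gave 1 higher, library totals 11 lower and the fold threshold 3 lower; leaving out libraries gave 1 to 4 higher and 4 to 10 lower. For the regulators (6 higher, 5 lower) the fold threshold gave 3 higher and 0 lower, DESeq2 3 lower and library totals 9 lower; leaving out libraries gave 6 to 10 higher and 1 to 7 lower. The sign of Bcl2 turned with library totals (−0.25), with the filter of 1 CPM (−0.0018), with the replicate block (−0.0143), without irradiated replicate 1 (−0.19; leaving out libraries one at a time gave up to 0.161) and without replicate 1 of both groups (−0.18), and that of Bbc3 without replicate 1 of both groups (−0.0311). The class difference of 0.55 ranged from 0.43 to 0.62.

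For H3K27ac promoters (2 gains, 0 losses) a threshold of 0.58 gave 4 gains and 2 losses (10.9% and 14.5% of all promoters of tested genes), quantile normalization 2 losses and 1 read added in place of 16 gave 1 loss. For FAIRE (0 gains, 0 losses) centring, quantile normalization, 1 read added and the threshold of 0.58 each gave 1 gain, and the last 2 each gave 2 losses (at 0.58, 0.596% of all promoters gained and 18.6% lost). With quantile normalization the H3K27ac difference of Bid was 0.13 and the FAIRE differences of Bak1, Bcl2l1 and Mcl1 were 0.00999, 0.29 and 0.34, while centring gave 0.0325 for Bcl2l1. That normalization also moved the FAIRE differences of Bax to −0.60, Bad to −0.03, Bid to −0.04, Bcl2l11 to 0.39 and Pmaip1 to 0.58, and 1 read added moved that of Bcl2 to −1.30. Few FAIRE reads (12 to 105 per window) limit single promoters. The planned results on peaks near the members and on BH3 motifs in proteins were not run.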

Other observations

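Promoters of the related genes, singled out after their values were seen, held further differences between chromatin and RNA. Apaf1 gained H3K27ac, from 656 to 1473 reads (difference of log2 enrichment 1.14), while its RNA log2 fold change was −0.54 and did not pass (adjusted p = 0.067 in edgeR). Bcl2l15 went from 19 to 130 H3K27ac reads (2.05) with RNA of about 1 CPM or less in both groups, at 0.879 and 0.99 CPM. Bnip3, which encodes a BH3-domain protein of mitochondrial autophagy, lost both H3K27ac (245 to 80 reads, −1.45) and FAIRE signal (55 to 15 reads, −1.06), and its RNA did not pass (−0.26, adjusted p = 0.43). Gsk3b, whose kinase marks MCL1 for degradation, also lost both (−1.13 and −1.24), and its RNA fell by 0.63 on the log2 scale (adjusted p = 0.0257).

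FAIRE differences lay below 0 at 9 of 10 promoters of the other BCL2 family, 24 of 25 of the mitochondrial pathway and 28 of 30 of the regulators, as they did at 76.7% of the promoters of all tested genes. Bcl2l2 and Birc6, an inhibitor of apoptosis, were beyond −1 in FAIRE (−1.12 and −1.01) while their RNA passed the test as higher (0.60 and 0.72, adjusted p = 0.0299 and 0.0376 in edgeR). The pooled promoter values have no replicates, and these contrasts were not tested.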
